A study of Arabidopsis thaliana with 12 samples.

Results

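Plastid fatty acid synthesis was followed through 3 genes of *Arabidopsis thaliana*, out of 691 genes with a probe of their own (692 probes) on an array of 3439 probes. The genes were AT3G56130, AT1G24360 and FATB (AT1G08510), each read by 1 probe whose annotation lists that gene alone. They were chosen by pathway together with the measured difference between the groups in these same samples (AT3G56130 had been among the single-gene probes with the most negative called differences), so the differences between the groups are given for them as a description. Their limma calls are stated beside the share of all probes called, and nothing is read from them.

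The study held 12 samples of total RNA from ecotype Landsberg, in 2 groups of 6. The laf6 samples came from a mutant without the plastid ABC protein atABC1, and had 1 h of normal light after dark adaptation. The wild type samples were dark adapted. Genotype and light changed together, so their contributions cannot be told apart, and the labels give no plant age, tissue or number of plants. The mutated gene (SUFB, AT4G04770) was named by no single-gene probe and could not check the labels.

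Fatty acids of plants are built in the plastid. Acetyl-CoA carboxylase makes malonyl-CoA, the committed step. Fatty acid synthase then lengthens a chain held on acyl carrier protein (ACP), and thioesterases cut the finished chain free for export from the plastid. AT3G56130 belongs to the biotin/lipoyl attachment domain containing (BADC) proteins, which resemble the biotin carrier subunit of the carboxylase, carry no biotin and lower its activity. AT1G24360 is the ketoacyl-ACP reductase, the enzyme of the first reduction in each round of elongation. FATB is the thioesterase that prefers saturated chains and releases much of the palmitate that leaves the plastid.

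The values are the authors' processed spot intensities on a linear scale, with a ceiling at 100 and with 13.0% to 19.3% of the probes of a sample listed at 0. Sample medians lay between 0.161 and 0.170 in laf6 and between 0.218 and 0.289 in wild type. Of 16 marker genes of green tissue, 5 were measured (PSAN, PSBY, LHB1B2, PRK and PSBW), none was at 0 in any sample, and their summed intensity, most of it from PSBW (at the ceiling in 1 wild type sample), ran from 96.6 to 130.5 in laf6 and from 79.5 to 131 in wild type. PRK, PSAN and LHB1B2 were higher in all 6 laf6 samples than in any wild type sample as deposited, which 4.54% of all probes were. Of the 5, limma called PRK higher (log2 difference 1.93, adjusted p = 0.0301, or 0.0943 with the replicate block) and not PSAN (0.71), LHB1B2 (0.57), PSBY (0.41) or PSBW (-0.46). The part of these markers in the results below was not tested. None of the listed root, seed or pollen markers had a single-gene probe. Samples numbered 1 and 2, 3 and 4, and 5 and 6 were averaged into 3 replicates per group, and log2 differences are laf6 minus wild type, after quantile normalisation unless the deposited scale is named. The number of arrays limits the precision of all of these values. P-values set a difference between the groups only against the spread between replicates. Since the labels do not call the samples separate cultures or plants, that spread may be technical.

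At the committed step, the regulator AT3G56130 was lower in the illuminated mutant in every sample. Its intensities in laf6 were 0.0664, 0.116, 0.0730, 0.0502, 0.140 and 0.0605 for numbers 1 to 6. In wild type they were 0.262, 0.263, 0.261, 0.332, 0.308 and 0.192. The groups did not overlap, and the highest laf6 reading was below the lowest wild type reading. The mean was 0.0845 ± 0.0203 in laf6 and 0.270 ± 0.0241 in wild type (SD, n = 3 averaged replicates each), a ratio of 0.313. After normalisation the log2 difference was -1.04 ± 0.19 (SE), and on the deposited scale -1.70 ± 0.22. Complete separation with laf6 lower was common on this array, at 17.9% of all probes as deposited and 7.73% after normalisation, and AT3G56130 was separated on both scales. In bulk RNA, fewer cells of a type and less RNA per cell cannot be told apart.

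The ketoacyl-ACP reductase AT1G24360 was the brightest of the 3, at the 88.5th percentile of the probes by mean intensity. Its intensities in laf6 were 0.896, 0.859, 1.13, 1.09, 0.740 and 0.805 for numbers 1 to 6. In wild type they were 1.31, 1.24, 1.59, 1.46, 0.939 and 1.03. The groups overlapped, with 4 of the 6 laf6 readings below the lowest wild type reading. Within both groups, numbers 3 and 4 were the highest and numbers 5 and 6 the lowest. The mean was 0.920 ± 0.172 in laf6 and 1.26 ± 0.269 in wild type (SD, n = 3). The log2 difference was -0.45 ± 0.23 (SE) on the deposited scale and -0.19 ± 0.15 after normalisation, beside medians of -0.54 and -0.08 over all probes on the same scales. With replicates centred on their medians its sign turned, to 0.155, while it was negative in 16 of 17 alternatives. The reductase thus has no direction that holds across all scalings.

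**Figure D1:**
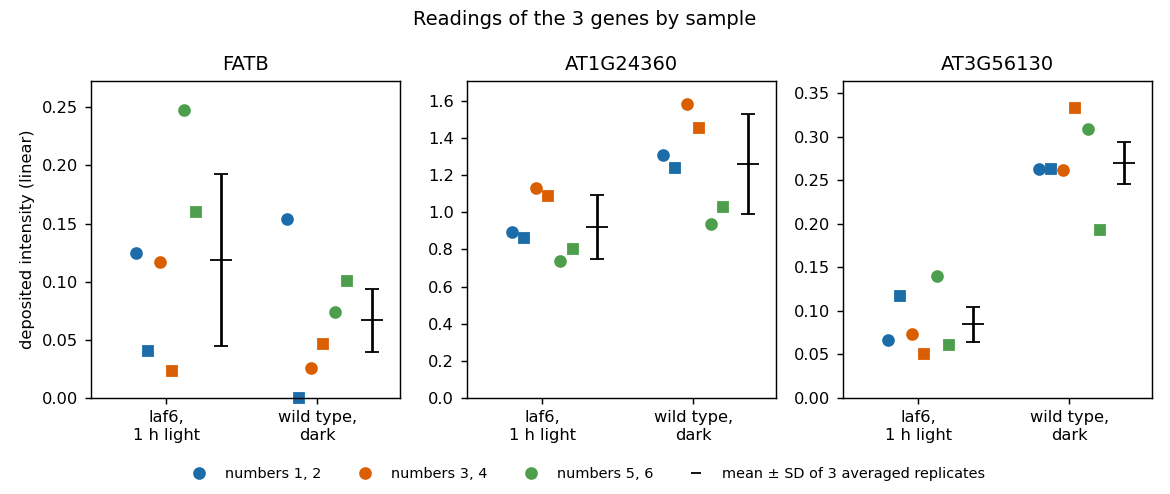
Deposited intensity (linear axis from 0) of each gene in the 6 samples of laf6 after 1 h of light and the 6 of dark wild type; colours mark the averaged pairs of numbers, circles the first and squares the second number of a pair, and the bar is the mean ± SD of 3 averaged replicates. AT3G56130 shows no overlap between groups, with laf6 at 0.0502 to 0.140 and wild type at 0.192 to 0.332, while FATB and AT1G24360 overlap.

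At the release step, FATB was dim and variable. Its intensities in laf6 were 0.125, 0.0403, 0.117, 0.0233, 0.247 and 0.160 for numbers 1 to 6. In wild type they were 0.154, 0, 0.0256, 0.0464, 0.0739 and 0.101. The groups overlapped, although 2 laf6 readings stood above every wild type reading. As deposited, same-numbered samples were higher in laf6 in 4 of 6 numbers and lower in the other 2, numbers 1 and 4. With the 12 samples normalised unaveraged, log2 differences by number ran from 0.379 at number 1 to 12.25 at number 2. Number 2 holds the wild type reading at 0. The mean was 0.119 ± 0.0737 in laf6 and 0.0667 ± 0.0271 in wild type (SD, n = 3). The log2 difference was 1.60 ± 0.66 (SE) after normalisation and 0.76 ± 0.58 as deposited. The value moved with the handling of the wild type reading listed at 0. With all 12 samples unaveraged the difference was 3.70, and with that reading left out of its pair's mean it was 1.23. It did not depend on that reading alone. Without wild type replicate 1, which holds the reading at 0, the difference was 1.826. Leaving out 1 replicate at a time gave 1.029 (without wild type replicate 2) to 2.001 (without wild type replicate 3), with 1.2 without laf6 replicate 3.

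Set against the other probes, the 3 genes took different places. Over all probes with both readings above 0, the median ratio of laf6 to wild type in same-numbered samples ran from 0.611 to 0.806. The ratio for AT1G24360 ran from 0.685 to 0.789 and lay within the interquartile range of the probes in all 6 numbers. For AT3G56130 it ran from 0.151 to 0.456, below that range in all 6. FATB had ratios from 0.501 to 4.55 in the 5 numbers that give one, above the range in numbers 3, 5 and 6 and within it in numbers 1 and 4. A lower laf6 reading in all 6 numbers, which AT1G24360 and AT3G56130 shared, was seen at 34.2% of all probes.

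**Figure D2:**
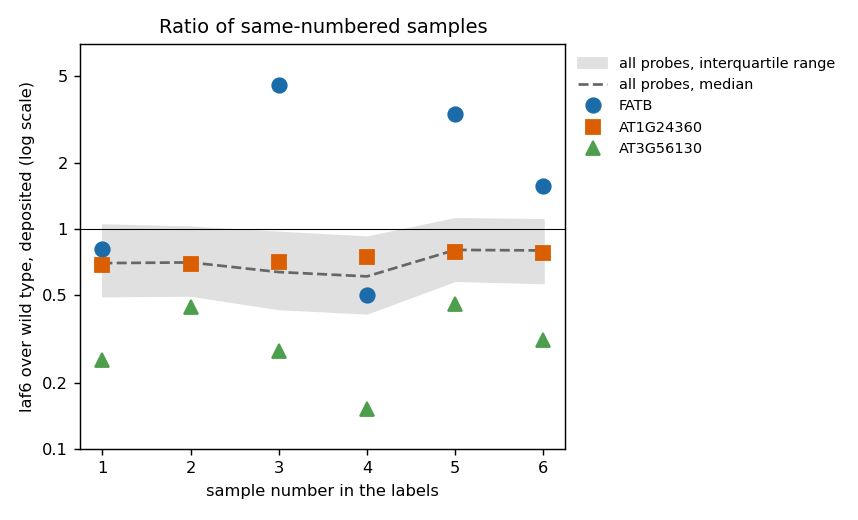
Ratio of the deposited intensity in laf6 to that in wild type for samples of the same number (log axis); the dashed line is the median and the grey band the interquartile range of all probes with both readings above 0. AT1G24360 lies inside the band and AT3G56130 below it at every number, and FATB, which has no ratio at number 2, scatters from 0.501 to 4.55.

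The spread of the 3 genes over the 6 readings of a group followed their mean brightness over all samples only in part. In wild type AT3G56130 varied less than the brighter AT1G24360 by this measure, which also holds the differences between replicates. The 2 readings of an averaged pair differed by 1.04-fold to 1.1-fold for AT1G24360, by 1.00-fold to 2.32-fold for AT3G56130 and by 1.36-fold to 5.01-fold in the 5 pairs of FATB without a 0. The coefficient of variation over the 6 readings of AT1G24360 was 17.0% in laf6 and 19.6% in wild type. That of FATB was 69.0% in laf6 and 83.0% in wild type. AT3G56130 had 42.2% in laf6, where it was dim, and 17.8% in wild type. In its brightness class, 5 of 10 by the mean over both groups, the median probe had 38.2% in laf6 and 30.1% in wild type. Its mean in laf6 alone lies in the range of class 3, where the median probe had 83.2% in laf6. Its mean in wild type alone lies in that of class 6, where the median probe had 26.5% in wild type. For FATB, in class 3, the class medians were 83.2% in laf6 and 65.6% in wild type, and for AT1G24360, in class 9, they were 16.0% in laf6 and 17.3% in wild type. The median log2 difference as deposited also moved with brightness, at -0.94 in class 3, -0.74 in class 5 and -0.42 in class 9. After normalisation it was -0.11, -0.09 and -0.13 in these classes. The part of this trend in the differences of the 3 genes was not tested.

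**Figure D3:**
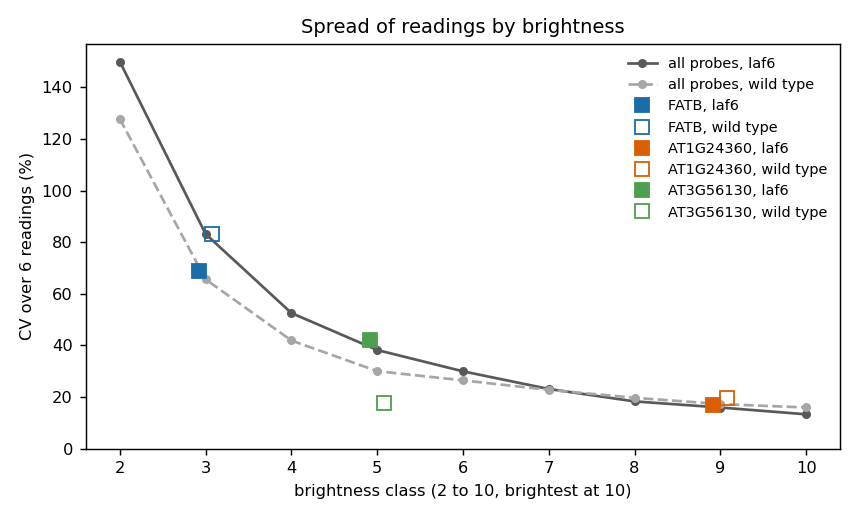
Coefficient of variation over the 6 readings of a group (percent) against brightness class, from class 2 to the brightest, class 10; lines are medians of all probes and squares the 3 genes, filled for laf6 and open for wild type. The spread falls with brightness, AT1G24360 lies near the lines, and AT3G56130 in wild type lies below its line, at 17.8% against a class median of 30.1%.

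Limma called 1 of the 3 genes at an adjusted p under 0.05, AT3G56130, beside 9.74% of all probes (189 higher and 146 lower in laf6). As deposited the array had 114 higher calls (3.31% of probes) and 362 lower calls (10.5%), with the same gene among the lower ones. Nothing is read from that count, since the same contrast entered the choice of the genes. With the replicate number as a block, 0.349% of the probes (3 higher and 9 lower) and none of the 3 genes were called. With the block and a pseudocount of 0.0545 in place of the floor there were 174 higher and 121 lower calls, and again none of the 3. Leaving out 1 replicate ended the call of AT3G56130 in 5 of 6 cases, all but laf6 replicate 2, with log2 differences from -1.14 to -0.84.

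Around these genes, 7 lists of lipid metabolism with 124 loci held 8 loci with a single-gene probe, the 3 genes and 5 others. Of these 5, limma called 1 higher in laf6 and none lower, beside 5.5% higher and 4.25% lower calls over all probes. The median log2 difference was -0.35 over the 4 of them not at 0 throughout a group, and -0.08 over all probes. No locus of the lists for plastid carbon supply or for fatty acid breakdown and oxylipins had such a probe.

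The called locus was AT3G45770, the enoyl-ACP reductase of the separate fatty acid synthesis pathway of mitochondria. Its intensities in laf6 were 0.770, 0.798, 0.794, 0.601, 0.671 and 0.584 for numbers 1 to 6. In wild type they were 0.671, 0.576, 0.679, 0.729, 0.452 and 0.518. The deposited readings overlapped, with laf6 higher in 5 of 6 numbers. The mean was 0.703 ± 0.0784 in laf6 and 0.604 ± 0.111 in wild type (SD, n = 3). After normalisation it rose by 0.60 ± 0.11 on the log2 scale (limma adjusted p = 0.0411). The call was lost with the replicate block (adjusted p = 0.0946), on the deposited scale (log2 difference 0.23, adjusted p = 0.421) and without any 1 of the 6 replicates (adjusted p from 0.0673 to 0.115). It was kept with the block and pseudocount together (adjusted p = 0.0489). Over all alternatives its adjusted p ran from 0.000992 to 0.421.

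The other 4 loci did not pass. AT2G04540, the ketoacyl-ACP synthase of mitochondria, had 0.00176 to 0.111 in laf6 (median 0.0675) and 0.115 to 0.256 in wild type (median 0.178). Its deposited readings did not overlap, which with laf6 lower was seen at 17.9% of all probes. After normalisation they did, with laf6 up to -2.88 and wild type down to -3.35 on the log2 scale. As deposited, laf6 numbers 1 and 2 were far below the other laf6 readings. The log2 difference was -1.34 ± 0.90 (limma adjusted p = 0.426). It was -0.40 without laf6 replicate 1, which holds those numbers, and -0.15 without numbers 1 and 2 in both groups. AT1G42960 (CTI1), an envelope protein that binds the carboxyltransferase part of the plastid carboxylase, had 0.00380 to 0.169 in laf6 (median 0.113) and 0.137 to 0.356 in wild type (median 0.198), a log2 difference of -0.53 ± 0.55 (adjusted p = 0.590). That difference was -0.06 without laf6 replicate 1, -0.24 without wild type replicate 1, -0.94 without laf6 replicate 2 and 0.23 without numbers 1 and 2 in both groups. AT5G16230, a stearoyl-ACP desaturase of a family with close copies that a probe may not separate, had 0.0848 to 0.169 in laf6 (median 0.131) and 0.134 to 0.365 in wild type (median 0.199). Its log2 difference was -0.17 ± 0.24 (adjusted p = 0.709), and ran from -0.33 to 0.023 when 1 replicate was left out. AT3G58830, a phosphatase of phosphatidylglycerol synthesis, was listed at 0 in all 6 laf6 samples and in 4 of 6 wild type samples, and no fold is given.

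**Figure D4:**
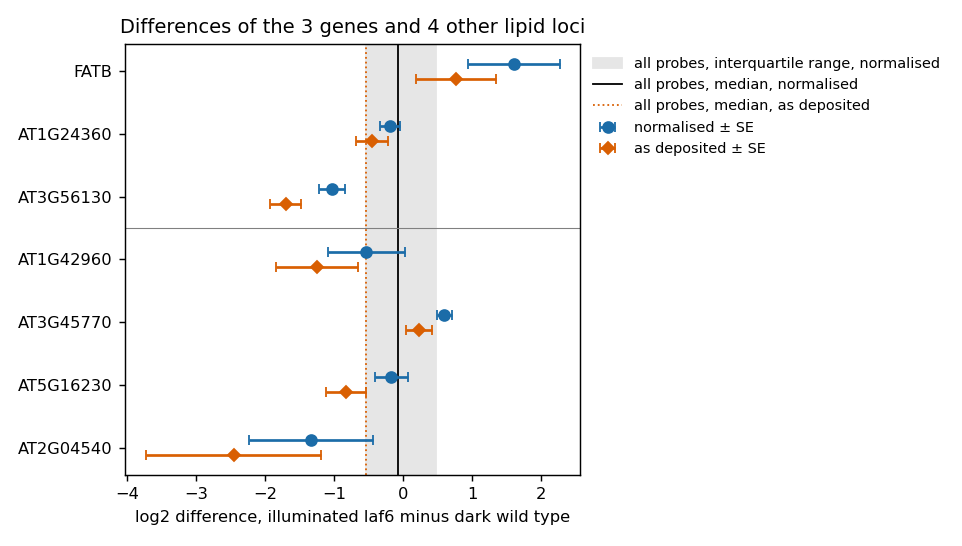
Log2 difference, illuminated laf6 minus dark wild type, with its SE, for the 3 genes (above the line) and 4 other lipid loci, after normalisation (circles) and as deposited (diamonds); vertical lines are the medians and the band the interquartile range of all probes. AT3G56130 lies at -1.04 and -1.70, FATB at 1.60 and 0.76 with wide errors, and AT1G24360 close to the median of all probes on each scale.

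A further 12 probes list a locus of the lipid lists among several genes, and no gene is assigned to them. One of the 12 was called, probe 2410, with 1.06 ± 0.25 in laf6 and 0.424 ± 0.125 in wild type (SD, n = 3), a log2 difference of 1.73 ± 0.25 (limma adjusted p = 0.0258, or 0.0771 with the replicate block and 0.0604 as deposited). Of the 12, 2 list one of the 3 genes. Probe 155, which lists AT3G56130 with 2 other loci of its family, had 0.0255 to 0.130 in laf6 (median 0.0683) and 0.0437 to 0.182 in wild type (median 0.0781). Its groups overlapped, so the separation at the single-gene probe of AT3G56130 was not seen there. The log2 difference of probe 155 changed sign with the scale. It was 0.47 ± 0.59 after normalisation (limma adjusted p = 0.660) and -0.28 ± 0.50 as deposited. Probe 1541, which lists FATB with other thioesterase genes, was at 0 in 5 of 6 samples of each group, both non-zero readings being number 3, at 0.00763 in laf6 and 0.0897 in wild type.

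Genes with the most similar pattern were ranked by Pearson's r over the 12 samples, among the other single-gene probes with no value of 0. For AT3G56130 they were AT2G32040, a plastid folate transporter (r = 0.919), AT5G06990 (r = 0.872) and AT1G61590 (r = 0.856), with log2 differences of -0.98, -0.53 and -0.67. Within groups AT2G32040 had r = 0.831 in laf6 and r = 0.389 in wild type, and the other two had r = 0.525 and 0.703 in laf6 and r = 0.571 and 0.50 in wild type. All of these were below the r over 12 samples, which also holds the difference between the groups. For AT1G24360 they were AT5G42070 (r = 0.811), AT2G28540 (r = 0.810) and AT4G24840 (r = 0.809). In this order they had r = 0.667, 0.821 and 0.721 within laf6 and r = 0.812, 0.638 and 0.943 within wild type. For FATB the nearest was SIRB, a ferrochelatase of siroheme synthesis (r = 0.914), with r = 0.967 within wild type and r = 0.111 within laf6. AT5G03900 (r = 0.710) and AT2G44530 (r = 0.697) came next, with r = -0.25 and 0.485 within laf6 and r = 0.823 and 0.72 within wild type. Without the FATB reading at 0, an alternative chosen after seeing the data, the 3 nearest to FATB were AT3G50880 (r = 0.873), AT2G37420 (r = 0.865) and AT1G64430 (r = 0.865), so its first list rested on that reading. AT3G50880 and AT2G37420 had r = 0.764 and 0.730 with FATB within laf6, and within wild type, where the reading at 0 enters, r = 0.019 and 0.016. AT1G64430 had r = 0.466 within laf6 and r = 0.58 within wild type. The samples share 1 array design and were quantile normalised together, and these correlations are descriptions.

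**Figure D5:**
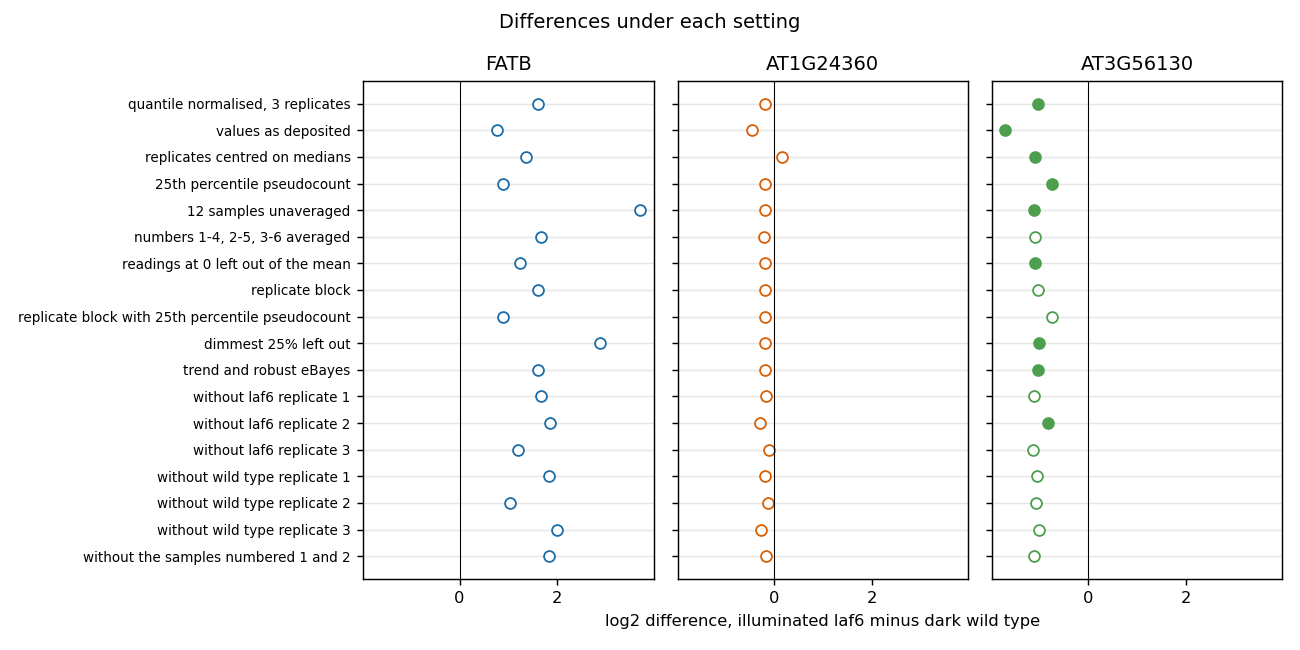
Log2 difference, illuminated laf6 minus dark wild type, of each gene under 18 settings of the processing (1 scale on all 3 panels); filled points were called by limma at an adjusted p under 0.05. AT3G56130 stays between -1.70 and -0.75 and is called in 9 of the 18, FATB ranges from 0.76 to 3.70 and AT1G24360 from -0.45 to 0.155, neither called in any.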

How the data were processed

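RNA of 12 samples, 6 per group by their titles, was measured on 1 array design. The deposited table holds the authors' intensity values on a linear scale. Background correction, scaling and software are not given in the sources used here. Genes were named through the platform's annotation, which gave 1 gene for 692 probes (690 matched a TAIR10.1 locus), several for 870 and none for 1877.

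Consecutive numbers were averaged as intensities. Their deviations from group means correlated at 0.02 to 0.68 after normalisation, over 1387 probes with a mean above 0.3, and those of other pairs at -0.63 to 0.17. Same-numbered replicates of the 2 groups deviated together over these probes (correlations of 0.549, 0.451 and 0.166), with 0.184, 0.103 and 0.168 over all probes. The replicate block takes same-numbered replicates as pairs, from the values alone. Fits without the block, which gave the main values, ignore this pairing. Zeros were raised to the smallest positive intensity (1.33e-05) before taking log2, and replicates were quantile normalised and fitted with limma 3.58.1 in R 4.3.3, with Benjamini-Hochberg adjustment over 3439 probes and a threshold of 0.05. The fit was tested on simulated replicates with independent normal noise of the same SD (0.3, log2 scale) at every probe. In the data the median residual SD was 4.81 in brightness class 2 and 0.184 in class 10, and replicates may be paired. That test therefore does not show how the fit performs on these data. Brightness classes are 10 about equal groups of probes by mean intensity over the 12 samples.

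The 3 genes and the lists were chosen with earlier results of these data known. Named are the 3 genes, the measured lipid list loci and, per gene, the 3 single-gene probes most like it. Probes named by number were added after their values were seen. The keyword search for further lipid genes could use only synonyms in the gene table and found FATB alone.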

Additional observations from a re-analysis of the deposited data

Results flagged for a closer look

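Of 15 sets of 6 readings checked for a reading far from the rest (the 3 genes and 5 other lipid loci in each group, where readings varied), 1 was set apart. In wild type, AT3G58830 had 0.0432 in sample number 6, against 0.00785 in number 5 and 0 in the other 4. The nominal rate of the rule is about 5% of sets, for independent normal readings. The rate for sets with readings at 0, such as this one, was not measured.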

How the results depend on the processing

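Counts of calls moved with most settings, against 189 probes higher and 146 lower in laf6. There were 114 and 362 as deposited, 353 and 421 with 12 samples unaveraged, 340 and 347 with numbers 1-4, 2-5 and 3-6 averaged, and 3 and 9 with the replicate block. Leaving out numbers 1 and 2 gave 21 and 30, and leaving out 1 replicate 59 to 114 and 32 to 83. Lower calls were 45 with medians centred and 232 with trend and robust eBayes. The 1 lipid locus called higher became 0 as deposited, with the replicate block, without numbers 1 and 2, and without each replicate (0 to 0). Log2 differences of AT3G56130 were negative in all 17 alternatives, at -1.70 as deposited and -0.75 with a pseudocount of 0.0545, with or without the block. It was called in 8 of the 17. FATB was positive in all 17 and called in none, at 3.70 unaveraged and 2.88 without the dimmest 25% of probes. AT1G24360 was negative in 16 of the 17, with -0.45 as deposited, was positive at 0.155 with medians centred, and was called in none. AT1G42960 turned to 0.23 without numbers 1 and 2, and AT5G16230 had -0.33 to 0.023 without 1 replicate, positive without laf6 replicate 1 only. The replicate block ended the calls of AT3G56130, AT3G45770 and probe 2410 and changed no other call among the 3 genes, the 5 other lipid loci and the 12 several-gene probes. With block and pseudocount together AT3G45770 kept its call (limma adjusted p = 0.0489), and 174 probes were higher and 121 lower. The fitted difference of AT3G58830 depends on the floor, since laf6 was at 0 throughout, and is not reported or compared. Fewer samples by construction lie behind the settings that leave samples out, and elsewhere the cause was not tested. Values near 0 cannot be ranked.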
